A study of Rattus norvegicus with 218 samples.

Results

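Gfap, the transcript of glial fibrillary acidic protein, was followed across neurons captured from the vagal dorsal motor nucleus (DMV) of male Sprague Dawley rats. It was found as the row with that gene symbol, 1 of 165 genes on a panel of 168 RT-qPCR assays. The deposited table gave a threshold cycle (Ct) for each assay, where a lower Ct means more template and an empty cell means that the run gave no value. Gfap was selected on its known detection in these neurons and its correlation with other genes, so its overall share, level and correlations are given as a description.

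GFAP forms the intermediate filaments of astrocytes, the star-shaped glia that surround neurons and their synapses. It is the textbook marker of astrocytes, it rises when they react to injury, and mature neurons are not known for making it. The DMV holds the cholinergic motor neurons that send the vagus nerve to the heart and the gut.

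The 213 samples were single neurons (115) or pools of 2 to 8 neurons (98), stained for the neuronal protein NeuN in 10 µm sections and lifted by laser capture. Caps that had picked up non-neuronal cells were not used, according to the study's methods. Naive rats (92 samples from 3 animals) had no operation. Sham rats (70 samples from 4 animals) had ketamine and xylazine anaesthesia and exposure of the femoral vessels, and rats with remote ischemic preconditioning (RIPC, 51 samples from 3 animals) had the same anaesthesia and a temporary tie around these vessels on both sides. RIPC tissue was taken 2.5 h after reperfusion, and sham tissue at the matching time, since the thread was left untied in sham rats. The methods give 3 animals per cohort, whereas the labels name 4 sham animals. Pools of several cells come from single animals, and samples of 1 animal are not replicates of a treatment, so treatments were compared over animals.

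The depth of a sample was taken as its count of assays with a value, which ran from 0 to 149 of 168 with a median of 74 (67 in single neurons and 92.5 in pools). The results below use the 186 samples with a value in at least 25% of the assays, which were 98 single neurons and 88 pools. Of the single neurons, 57 were naive, 54 of them from naive replicate 3, 16 were sham and 25 were RIPC. The captured material carried neuronal transcripts, with Scn2a (a voltage-gated sodium channel) in 97.3% of the 186 samples, Camk2a (a kinase of excitatory synapses) in 95.2% and Chat (the enzyme that makes acetylcholine) in 75.3%.

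Gfap had a value in 147 of the 186 samples, or 79.0% (Wilson 95% interval 72.6 to 84.3%, counting error only). It was present in 79 of 98 single neurons (80.6%, interval 71.7 to 87.2%) and in 68 of 88 pools (77.3%, interval 67.5 to 84.8%). Over all samples 39 genes were found more often than Gfap, 25 in single neurons and 56 in pools, and Htr1a and Ltb4r, receptors for serotonin and leukotriene B4, had the same total. The nearest genes above were Chrm5 and Cacna1a with 148 samples each and IL6r, the interleukin-6 receptor, with 149. The nearest below were Cebpd with 145 and Chrm2 and Chrna7 with 144 each. These totals differ from that of Gfap by at most 3 samples and sum 2 kinds of sample with different orders. Ltb4r was found in 66 single neurons and 81 pools, IL6r in 69 and 80 and Cebpd in 69 and 76, whereas Gfap was found in 79 and 68.

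Gfap values were seldom late. Its Ct ran from 7.84 to 23.0 in the 147 samples, with a median of 14.1. Over all 213 samples 3 of 150 Gfap values (2%) lay above 20 cycles, beside 5.07% of the values of all genes. The latest value of the 147, at 23.0 cycles, was a pool of 3 sham replicate 2 neurons.

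To compare samples of different yield, each Ct was subtracted from the median Ct of the 35 most often detected genes in the same sample, so that a higher level means more transcript and 1 cycle is ideally a doubling. Gfap level ranged from -7.79 to 3.44 cycles, with a median of -0.803 and a mean of -0.684 ± 1.53 (SD, n = 147 samples). Within single neurons with a value it ranked at a median of place 34 of about 72 detected genes. Within pools it ranked at a median of 40.5 of 100.5. It lay in the upper part of the detected genes, before the middle place, in 43 of 79 single neurons (54.4%) and 43 of 68 pools (63.2%). Gfap was thus a transcript of middle level in these samples, and levels of different assays also carry the efficiency of their primers.

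Next, Gfap was set against neuronal transcripts of the same sample. Gfap came 2.23 ± 1.15 cycles after Scn2a in pools (mean of animal means, SD, n = 9 animals; a difference of level of -2.23) and its difference from Scn2a in single neurons was -2.16 ± 0.95 cycles (n = 8 animals). All animals of both comparisons had Gfap below Scn2a. Against Rgs4, a regulator of G protein signalling that is abundant in neurons, the difference was -1.65 ± 0.738 cycles in pools (n = 8) and -1.70 ± 0.856 in single neurons (n = 7), again below in all of these animals. Against Map2, the dendritic microtubule protein, it was 0.0371 ± 1.02 cycles in pools (n = 8) and 0.000212 ± 0.923 in single neurons (n = 7), with animals on both sides of 0. Against Scn1a, another sodium channel, it was -0.535 ± 0.796 cycles in pools (n = 8) and -1.24 ± 0.829 in single neurons (n = 7). Gfap was the higher in 2 and 1 of these animals.

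Differences from Camk2a, Eno2 and Chat varied more between animals. The difference from Camk2a was -0.648 ± 1.70 cycles in pools and -0.132 ± 1.82 in single neurons, and from Eno2, the neuronal enolase, -0.920 ± 2.14 and -0.905 ± 2.08. From Chat it was -0.822 ± 1.41 in pools and -0.0315 ± 1.65 in single neurons. Gfap was the lower in 6 of 9 animals against Camk2a, 7 of 9 against Eno2 and 5 of 8 against Chat in pools. In single neurons it was the lower in 6 of 8, 7 of 8 and 4 of 7. Each of these SDs exceeds its mean. In pools Gfap lay above the transmitter enzymes Gad1 (0.887 ± 0.702 cycles, higher in 4 of 5 animals), Gad2 (0.751 ± 0.994, 7 of 9) and Dbh (0.722 ± 1.41, 4 of 6). It lay below Ache (-0.549 ± 0.872, higher in 2 of 9) and Th (-2.75 ± 1.06, higher in 0 of 8). In single neurons the difference from Gad2 was -0.559 ± 1.22 cycles (higher in 3 of 8).

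Samples with Gfap also carried neuronal transcripts. Of the 79 single neurons with Gfap, 78 had Camk2a, 77 had Scn2a and 73 had Eno2, beside 17, 17 and 19 of the 19 without Gfap. Chat was found in 56 of the 79 (70.9%) and 12 of the 19 (63.2%), and Gad1 or Gad2, which make GABA, in 44 (55.7%) and 7 (36.8%). Th, the first enzyme of catecholamine synthesis, was found in 48 (60.8%) and 7 (36.8%), and Dbh, which makes noradrenaline, in 19 (24.1%) and 1 (5.26%). The single neurons with Gfap also had more assays with a value, at a median of 73 beside 61. In pools, Chat was found in 63 of 68 with Gfap (92.6%) and 9 of 20 without (45%), at medians of 101.5 and 56.5 assays. Over all 186 samples the phi coefficient, a correlation of presence with presence, fell once the number of assays was taken out, from 0.26 to 0.087 for Chat, from 0.31 to 0.14 for Th, from 0.18 to 0.0025 for Dbh and from 0.23 to 0.12 for Gad1.

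Markers of other cells were few on the panel. Of 10 astrocyte markers listed, only Gfap and Agt were assayed. Agt encodes angiotensinogen, the precursor of angiotensin, which in the brain is made mainly by astrocytes. Of 8 microglial markers the panel held Ptgs1 (cyclooxygenase 1), found in 34 of 186 samples (18.3%), and of 10 vascular markers Nos3 (endothelial nitric oxide synthase), found in 37 (19.9%). None of the 9 oligodendrocyte lineage markers was assayed. Among these 4 genes, Gfap and Agt included, the median number present per sample was 2 for every treatment, among single neurons and among pools. Pools with none occurred under each treatment, with 4 of 18 after RIPC, 2 of 46 after sham surgery and 1 of 24 without an operation. Among single neurons, 4 of the 57 naive ones had none, and each sham or RIPC neuron had at least 1. The other astrocyte markers, such as Aqp4 and Aldh1l1, are not on the panel, so the cell that gave the Gfap transcript was not tested.

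Agt was found in 155 of the 186 samples (83.3%), 80 of 98 single neurons and 75 of 88 pools, at a mean level of -0.607 ± 1.59 cycles (SD, n = 155). Both transcripts were present in 69 single neurons (70.4%) and 66 pools (75%), and neither in 8 and 11. Ptgs1 had a value in 8 of the 79 single neurons with Gfap (10.1%) and 4 of the 19 without (21.1%), and Nos3 in 11 (13.9%) and 3 (15.8%). In pools Ptgs1 was found in 19 of 68 with Gfap (27.9%) and 3 of 20 without (15%), and Nos3 in 19 (27.9%) and 4 (20%). The direction thus differed between single neurons and pools for both markers, at counts of at most 19.

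The level of Gfap followed that of Agt more closely than that of any other gene with enough shared samples. Over the 135 samples with both values Spearman's coefficient was 0.56 and Pearson's r 0.51, and r was 0.50 without the 2 samples farthest out in Agt level. Of the 121 genes with at least 30 shared samples the next were Cacna1i (0.35, n = 89), Cacna1h (0.33, n = 109), Gad2 (0.32, n = 89) and Cacna1g (0.31, n = 66). Cacna1g, Cacna1h and Cacna1i are the pore subunits of T-type calcium channels, and their Pearson's r was lower, at 0.17, 0.14 and 0.26. In single neurons Spearman's coefficient of Cacna1i was 0.18. The median over the 121 genes was 0.057. Seen from Agt, Gfap was likewise the nearest gene, ahead of Agtr1a, the angiotensin receptor (0.39, n = 59). Without centring Agt was again the nearest gene, at 0.67, but Grk2 followed at 0.64 and the median of all genes was 0.38. These points share animals and the centring of each sample, and Spearman's coefficient is given as a description.

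The relation of Gfap and Agt was present in each subdivision of the samples. Spearman's coefficient was 0.73 in pools (n = 66) and 0.40 in single neurons (n = 69), where Agt stood second of 99 genes after Hcn4 (0.44, n = 50). It was 0.53 in naive (n = 56), 0.59 in sham (n = 48) and 0.63 in RIPC samples (n = 31), and 0.55 on the left and 0.57 on the right. With each animal's mean taken out it was 0.54. In the 8 animals with at least 6 samples holding both values Spearman's coefficient was above 0 in all 8, from 0.18 in sham replicate 2 to 0.78 in RIPC replicate 3, with a median of 0.57. In the sham replicate 2 pool with the Gfap level of -7.79, Agt stood at -0.156 cycles, and in that animal Pearson's r was -0.0042 (n = 9).

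After centring, the 6 pan-neuronal genes had coefficients near or below 0. Spearman's coefficient was -0.18 with Scn2a (n = 145), -0.16 with Camk2a (n = 145), -0.076 with Map2 (n = 137), -0.0065 with Rgs4 (n = 138), 0.0135 with Scn1a (n = 116) and 0.058 with Eno2 (n = 141). All of these but Scn1a were among the 35 genes used for centring, as was Agt. The values depend on that centring, without which the median over all genes was 0.38. The transmitter enzymes ranged from -0.14 for Chat (n = 119), through -0.038 for Ache (n = 139), 0.017 for Th (n = 107), 0.096 for Dbh (n = 57) and 0.17 for Gad1 (n = 62), to the 0.32 of Gad2. The lowest values were those of Npffr2 (-0.34, n = 35), Trpv1 (-0.33, n = 40) and Ppard (-0.30, n = 35), a neuropeptide FF receptor, a heat-gated channel and a nuclear receptor, each measured together with Gfap in few samples. Of the 7 inflammation and stress genes assayed, 4 had enough samples for a value, and they were 0.24 for Cebpd, 0.12 for Fos, 0.057 for IL6r and 0.029 for Ltb4r.

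**Figure D1:**
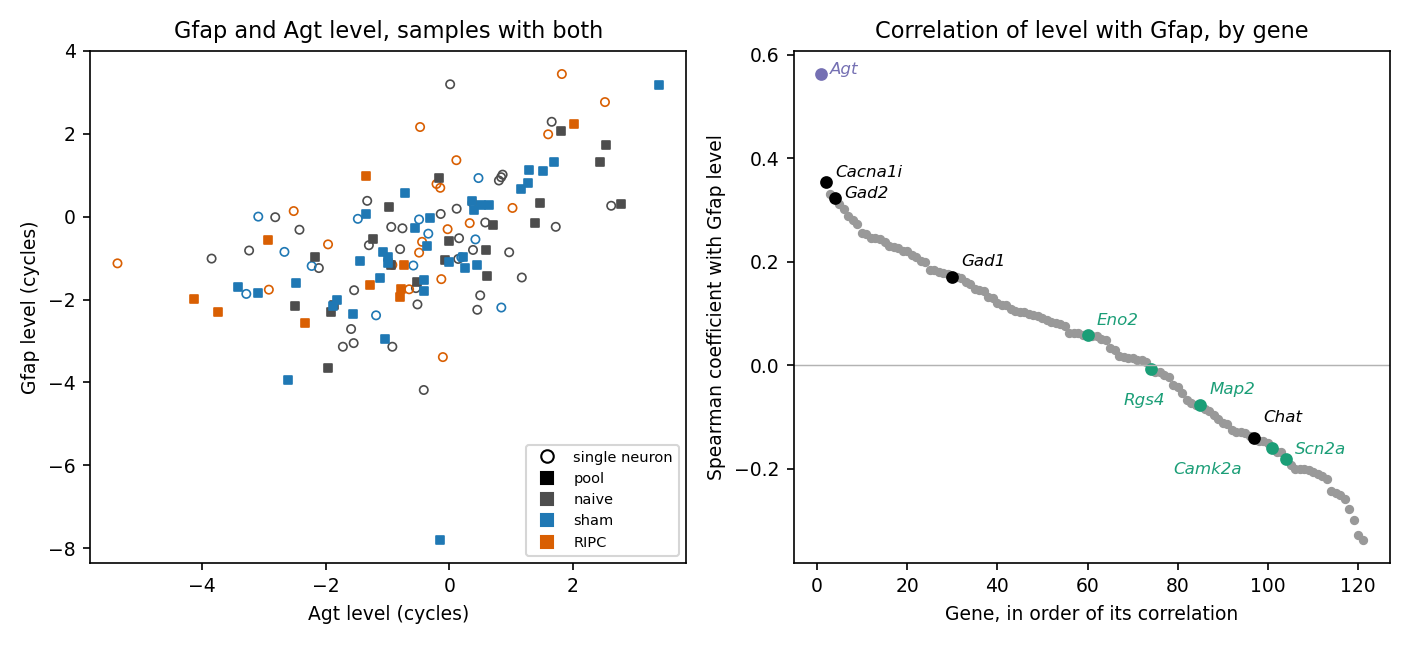
The left panel plots Gfap level against Agt level in cycles for the 135 samples with both, by treatment, with open circles for single neurons and filled squares for pools. The right panel gives Spearman's coefficient of each of 121 genes with Gfap level, in falling order, where Agt (0.56) stands above the next gene (0.35; 0.67 and 0.64 for the top 2 genes without centring), and the pan-neuronal genes named, in green, lie between -0.18 and 0.058.

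Presence followed a different order from level. The phi coefficient with Gfap was highest for Map2 (0.56), and Crebbp (0.46), Fstl1 (0.44) and Agt (0.44) were also high, beside a median of 0.18 over 132 genes, all over 186 samples. Map2 was found in 67 of the 68 pools with Gfap and in 6 of the 20 without, and in single neurons in 70 of 79 and 10 of 19. The lowest phi values were those of Hrh4 (-0.18), Kcnn4 (-0.12) and Htr1d (-0.095). In pools alone phi was 0.76 for Map2, 0.66 for Crebbp, 0.74 for Fstl1 and 0.61 for Agt. In single neurons alone it was 0.37, 0.11, 0.22 and 0.30, and Chrnb2 was the highest there, at 0.48. With the number of assays in the sample taken out, over all 186 samples, Map2 stood at 0.43, Crebbp at 0.38, Agt at 0.33 and Fstl1 at 0.25.

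Gfap detection moved with depth. Its presence correlated with the number of other assays with a value at 0.44, beside a median of 0.37 over 133 genes, whereas its level did not follow that number (Spearman's coefficient -0.025). Gfap had a value in 3 of 27 samples with under 25% of the assays, in 65 of 101 samples with 25% to under 50% (64.4%), and in 82 of 85 samples with 50% or more (96.5%, interval 90.1 to 98.8%). In the deepest samples it was thus near the ceiling in single neurons (21 of 22) and in pools (61 of 63).

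In the middle range of depth, single neurons and pools stood apart. Gfap had a value in 58 of 76 single neurons (76.3%, interval 65.6 to 84.5%) and in 7 of 25 pools (28%, interval 14.3 to 47.6%), with medians of 66 and 62 assays. That difference of -48.3 percentage points was the lowest of the 133 genes, whose median was -1. The next were Grk2 (-44.1), Chrna7 (-39.1), Gabrb1 (-38.8) and Crebbp (-37.4), and Map2 (-36.3) followed, while Agt stood at -25.6. RIPC replicate 1 gave 7 of these 25 pools, 1 of them with Gfap, and without that animal the share was 6 of 18 (33.3%). Naive replicate 3 gave 39 of the 76 single neurons, and without it 32 of 37 (86.5%) had Gfap. Of 7 animals with both kinds of sample in this range, the share was lower in pools in 5 and equal in 2. The range was chosen after the values had been seen, and no test was made.

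**Figure D2:**
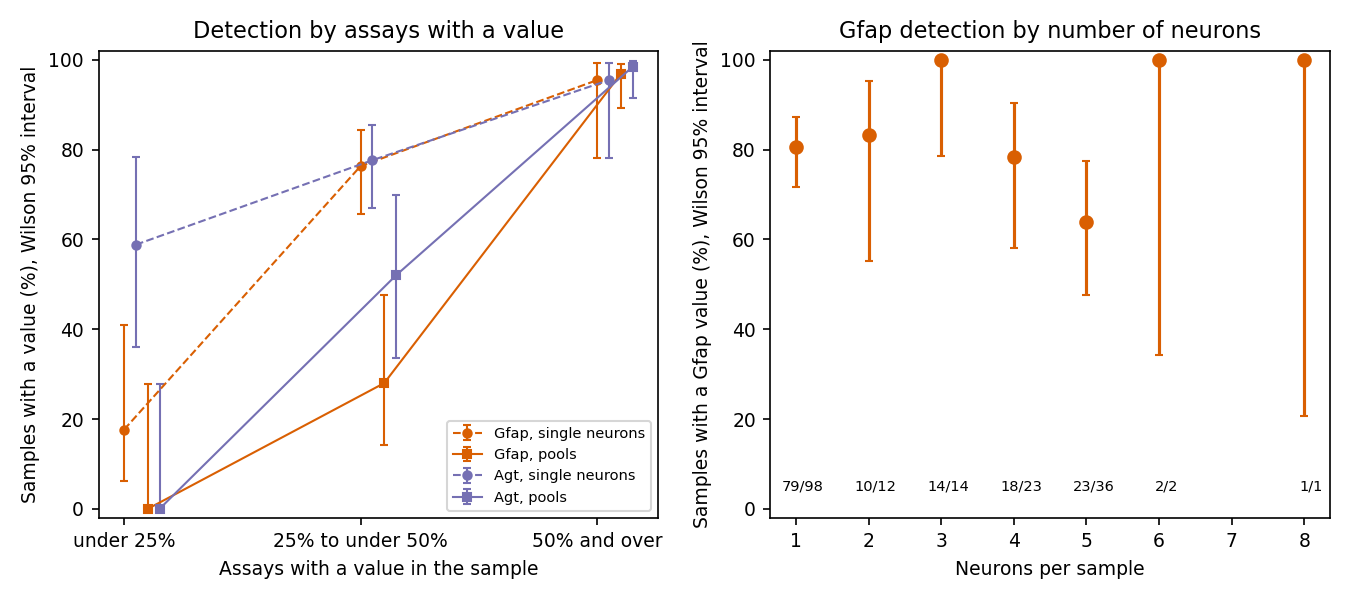
The left panel plots the share of samples with a value (percent, Wilson 95% intervals) against the share of assays with a value in the sample, for Gfap and Agt in single neurons and pools. The right panel gives the Gfap share by number of neurons per sample with the counts beneath, from 79 of 98 single neurons to 23 of 36 pools of 5.

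More neurons in a sample did not come with more frequent Gfap. It had a value in 10 of 12 pools of 2 neurons, 14 of 14 pools of 3, 18 of 23 pools of 4 and 23 of 36 pools of 5 (63.9%, interval 47.6 to 77.5%), and in the 2 pools of 6 and the pool of 8. The pools of 5 without Gfap came from 7 animals, 3 of them from RIPC replicate 1, whose 3 pools of 5 had a median of 47 assays with a value. Sham replicate 4 gave 9 of the 36, with a median of 105 assays, and 6 of these had Gfap. Its pools of 5 without Gfap had 52, 66 and 85 assays with a value. Among pools of 5 with at least 50% of the assays, Gfap had a value in 22 of 24 (91.7%).

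Within animals, Gfap was found in 77.9 ± 24.2% of pools and 86.3 ± 15.1% of single neurons (mean and SD, n = 8 animals with at least 2 samples of each kind). The animal differences, pools minus single neurons, were -75, 17.5 and 0 percentage points in RIPC replicates 1 to 3, 23.3 and 25.9 in naive replicates 2 and 3, and -28.6, -27.3 and -3.53 in sham replicates 1, 2 and 4. They fell on both sides of 0, with a mean of -8.45 ± 10.3 (SE; limma, adjusted p = 0.571; exact sign-flip p = 0.516, two-sided, smallest possible 0.0156). Without RIPC replicate 1 the mean was 1.06 percentage points. The same difference between the 3 treatments gave F = 1.80 for share and F = 0.504 for level (limma adjusted p = 0.982 and 0.999), where 0% of genes passed and 0.752% and 0.952% did so unadjusted.

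Of the 133 genes present in 10 to 95% of samples, 121 (91.0%) had a positive difference, with a median of 14.9 percentage points, and Gfap had the third lowest. After Benjamini-Hochberg adjustment 23 genes, 17.3% of those tested, were more frequent in pools and 0 less frequent, a count that ran from 5 without sham replicate 1 to 57 without RIPC replicate 1. With at least 50% of the assays required per sample, 0 of 110 genes were called. Among the inflammation and stress genes 2 of the 5 tested were called, Ltb4r at 37.0 ± 10.3 percentage points (SE, adjusted p = 0.0254, limma) and Cebpd, a transcription factor of the acute phase response, at 25.3 ± 8.27 (adjusted p = 0.0451). None of the 4 pan-neuronal genes and 6 transmitter enzymes tested was called, with medians of 0.953 and 5.66 percentage points. Agt had a difference of 5.68 ± 10.1 (adjusted p = 0.685, limma). Set against the median gene of the same animal, Gfap lay lower in pools by a mean of -23.7 ± 27.6 percentage points (SD), in 6 of 8 animals (exact sign-flip p = 0.0547, two-sided). The last test was added after the values had been seen.

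**Figure D3:**
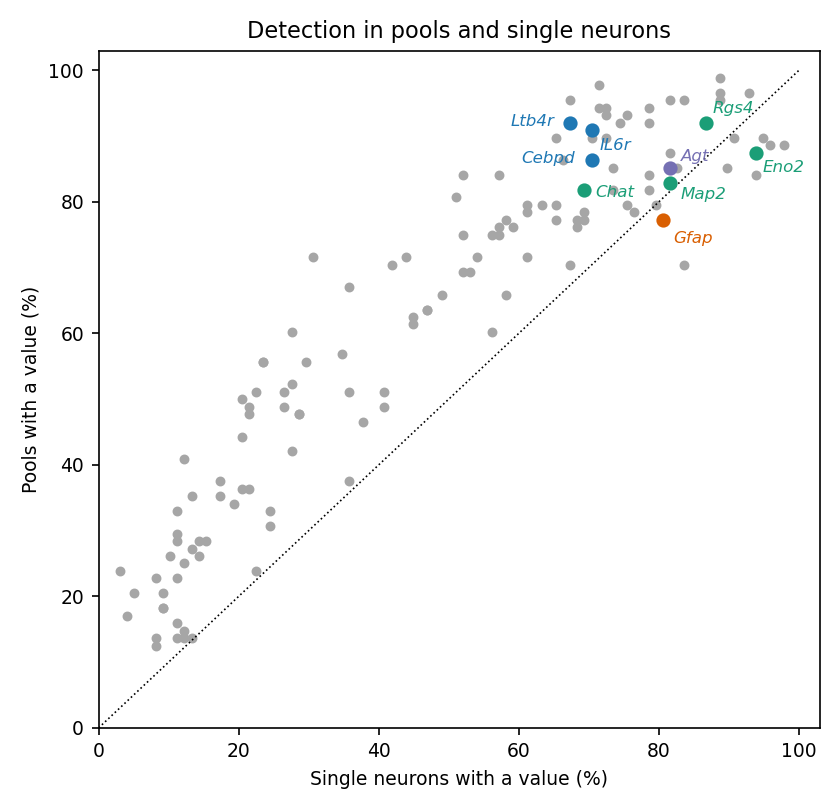
Each point is 1 of 133 genes, with the share of 98 single neurons that had a value on the x axis and the share of 88 pools on the y axis, both in percent, and the dotted line marks equal shares. Gfap (80.6 and 77.3%) lies below the line, while 123 of the 133 genes lie above it.

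Gfap level did not separate pools from single neurons either. It averaged -0.688 ± 0.883 cycles in pools and -0.580 ± 0.711 in single neurons (SD, n = 8 animals), a difference of -0.108 ± 0.263 cycles (SE; limma adjusted p = 0.925; exact sign-flip p = 0.664), with 3 animals higher in pools and 5 lower. No gene of 105 passed the adjusted threshold for level (0% by limma), and 10 (9.52%) did so unadjusted. Without centring, pools gave Gfap 1.61 cycles earlier (limma adjusted p = 0.0579), and 5 of 105 genes were called. With missing values at the highest Ct plus 1, 5 of 165 genes were called.

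The treatments were compared on pools, which all 10 animals had. Gfap was present in 1 of 3, 9 of 10 and 11 of 11 pools of naive replicates 1 to 3. It was present in 5 of 7, 8 of 11, 10 of 11 and 13 of 17 pools of sham replicates 1 to 4. In RIPC replicates 1 to 3 it was present in 2 of 8, 7 of 8 and 2 of 2 pools. The groups overlapped throughout, and the low animals were naive replicate 1 and RIPC replicate 1, whose pools had medians of 48 and 56.5 assays with a value, the lowest of the 10 animals.

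The share averaged 74.4 ± 36.0% in naive (SD, n = 3 animals), 77.9 ± 8.94% in sham (n = 4) and 70.8 ± 40.2% in RIPC rats (n = 3). RIPC minus sham was -7.05 ± 18.4 percentage points (SE; limma, adjusted p = 0.994; exact permutation p = 0.857, two-sided, smallest possible 0.0286). RIPC minus naive was -3.61 ± 19.6 points (adjusted p = 0.996; exact permutation p = 0.8, where 3 against 3 animals cannot go below 0.1). Sham minus naive was 3.44 ± 18.4 points (adjusted p = 0.965; exact permutation p = 0.914). Without RIPC replicate 1 the first 2 differences became 15.9 and 19.3 points. RIPC minus naive also turned, to 4.17 without naive replicate 2 and 9.17 without naive replicate 3, and was -24.2 without naive replicate 1. Sham minus naive became -17.1 without naive replicate 1 and -0.902 without sham replicate 3.

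No gene passed the adjusted threshold in these 3 contrasts (0% of 130 genes by limma over animals). At an unadjusted p under 0.05 there was 1 gene for RIPC against sham (0.769%), 4 for RIPC against naive (3.08%) and 2 for sham against naive (1.54%), and Gfap was not among them. Fisher's exact test over pools also called 0 genes, but it takes pools of the same rat as independent. Agt differed by -15.2 ± 15.7 points between RIPC and sham and by -10.6 ± 16.8 between RIPC and naive (adjusted p = 0.994 and 0.996, limma).

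RIPC replicate 1 was looked at sample by sample after its values had been seen. Of its 8 pools, the 3-neuron pool from the right side had 135 assays with a value and the earliest Gfap of all samples, at Ct 7.84 and a level of 2.24 cycles, with Agt at Ct 8.07. A 4-neuron pool from the left had 62 assays and Gfap at Ct 16.3, a level of -1.57. The other 6 pools had 43 to 74 assays, no Gfap value, and 2 to 4 of the 6 pan-neuronal genes. All 4 of its single neurons had Gfap, at Ct 11.7, 14.6, 14.9 and 16.3.

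The Gfap level in pools ran as widely within treatments as between them. By animal it was -0.0912 and -0.983 cycles in naive replicates 2 and 3, 0.499, -1.59, -0.214 and -1.49 in sham replicates 1 to 4, and 0.336, -1.71 and -0.471 in RIPC replicates 1 to 3. Naive replicate 1 had a single Gfap value, at -0.141, and was left out of the level test, which required 2 pools per animal. RIPC minus sham was 0.0840 ± 0.699 cycles (SE, limma adjusted p = 0.977), RIPC minus naive -0.0780 ± 0.835 (0.976) and sham minus naive -0.162 ± 0.792 (0.984). In exact permutation tests the p-values were 1, 1 and 0.867, where the smallest possible were 0.0286, 0.1 and 0.0667, so the contrasts with the 2 naive animals could not pass 0.05.

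Of the 99 genes tested for level, 0% passed in any of the 3 contrasts by limma, and 3 (3.03%), 4 (4.04%) and 0 did so unadjusted. The inflammation and stress genes with a test of level were 3 of 7, and none was called. Agt level differed by -0.691 ± 0.616 cycles between RIPC and sham (adjusted p = 0.977, limma). Fewer contributing cells and less transcript per cell cannot be told apart in a pool.

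Single neurons added few animals per treatment. The naive rats had Gfap in 42 of 57 neurons (73.7%), the sham rats in 15 of 16 (93.8%) and the RIPC rats in 22 of 25 (88%), shares that rest on neurons of the same few rats and are given without a comparison. In naive replicate 3, which gave nearly all naive single neurons, 40 of 54 had a value, with levels from -4.18 through a median of -0.756 to 3.20 cycles. The highest comes from a neuron run a second time, with Gfap from the second run alone and other genes averaged over both, and without the 3 neurons run again the highest level was 2.29. In RIPC replicate 3 all 11 had one, from -1.76 through 0.211 to 3.44. In RIPC replicate 2 it was 7 of 10, from -3.39 through -1.16 to 2.16, and without the 2 neurons run again the highest was -0.607. A RIPC replicate 3 neuron with a level of 1.36 has a title like those of RIPC replicate 2, and was kept with its labelled animal.

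**Figure D4:**
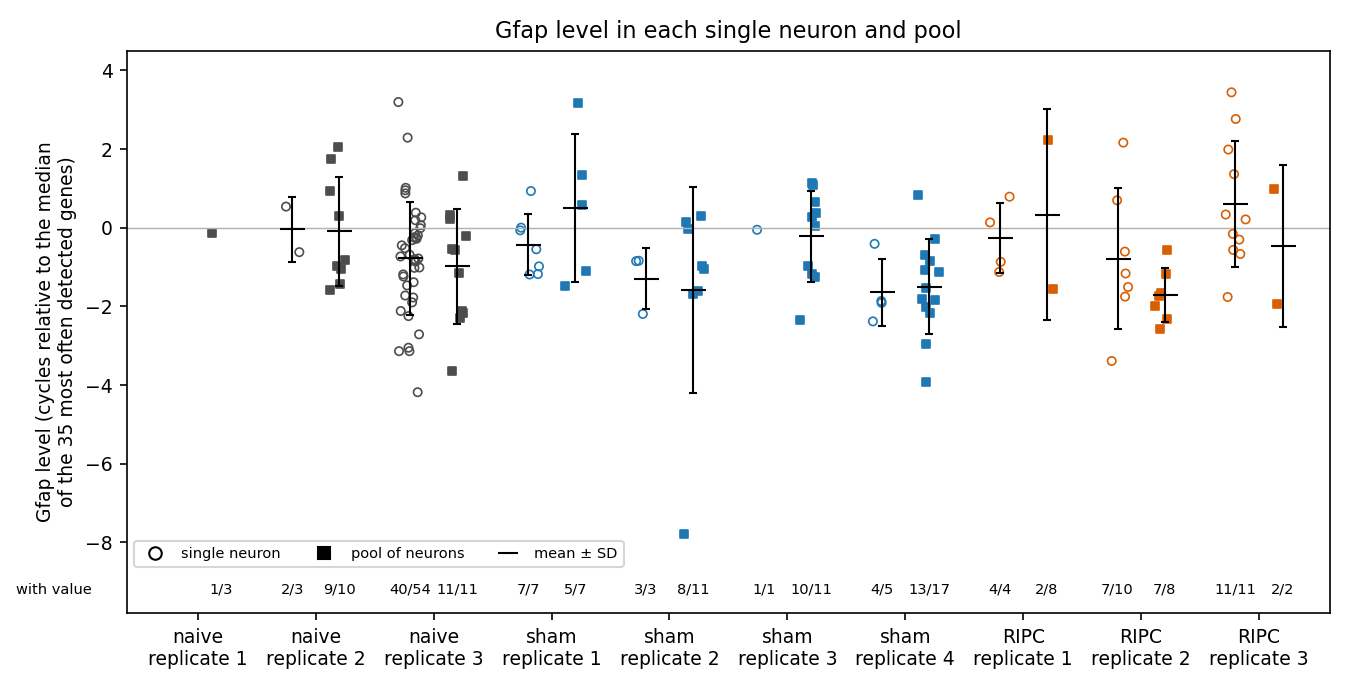
Each symbol is a sample, with Gfap level in cycles on the y axis and the 10 animals on the x axis, open circles for single neurons and filled squares for pools, with mean ± SD and, beneath, the samples with a value of those measured. The levels of the animals overlap, and range from -7.79 in a sham replicate 2 pool to 3.44 in a RIPC replicate 3 neuron.

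Left and right DMV were compared within the 9 animals with at least 2 samples on each side, single neurons and pools together. Gfap was present in 81.6 ± 14.1% of samples on the left and 79.0 ± 18.8% on the right (mean and SD over animals). The difference was 2.69 ± 6.23 percentage points (SE; limma adjusted p = 0.977; exact sign-flip p = 0.641, smallest possible 0.0156), positive in 4 animals, negative in 3 and 0 in 2. None of 133 genes passed the adjusted threshold (0% by limma), and 6 (4.51%) had an unadjusted p under 0.05.

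Level was -0.681 ± 0.567 cycles on the left and -0.445 ± 1.10 on the right, a difference of -0.236 ± 0.307 (SE, limma adjusted p = 0.930; exact sign-flip p = 0.457). Left was higher in 4 animals and lower in 5. In pools only the mean difference turned to 0.672 cycles. None of 123 genes passed for level by limma (0%), and 4 (3.25%) had an unadjusted p under 0.05. With both kinds of sample together, all 3 RIPC animals had a lower Gfap level on the left, by -1.14, -0.228 and -1.56 cycles, and in the 2 naive animals it was higher, by 0.998 and 0.509. The sham animals stood at -0.857, 0.828, -1.004 and 0.326. A test of the left minus right difference between treatments gave F = 2.63 for level (limma adjusted p = 0.933) and F = 0.619 for share (adjusted p = 0.997), and 0% of the genes passed in either (6 of 123, or 4.88%, and 3 of 133, or 2.26%, unadjusted).

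For 5 samples the table held a second run. Gfap had a value in both runs of 2 of them, at Ct 15.4 and 15.5 and at 13.9 and 13.3. In the other 3 it had no value in the first run and a Ct of 12.2, 10.7 and 15.4 in the second. An early Ct in a second run therefore stood against a missing value in the first, and for a single sample a missing Gfap value does not show that the transcript was absent.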

How the data were processed

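Laser-captured NeuN-stained neurons were lysed, reverse transcribed, preamplified and assayed by microfluidic RT-qPCR by the authors, who deposited raw Ct values (another unit than counts, with no normalization) with cells left empty where a run gave no value. The study's methods read most empty cells as below detection. The chip of each sample and the amplicons were not stated and so not analysed here. Groups, animals, sides and cell numbers came from the labels. Separate rats were the replicates. Symbols matched RefSeq's rat gene table for all 165 genes, 160 of them exactly.

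Duplicate assays and second runs of 5 samples were averaged. Samples needed a value in 25% of the assays, which kept 190 of 218 columns. Level was centred on the 35 most detected genes. Shares per animal (genes present in 10 to 95% of samples) and mean levels (at least 2 values per animal) were fitted over all genes with limma 3.58.1 in R 4.3.3, with Benjamini-Hochberg adjustment at 0.05 and two-sided tests. Treatments used pools, and sides and sample kinds used within-animal differences. Exact permutation and sign-flip tests were made for Gfap alone (scipy 1.17.1). Named genes were the neuronal, transmitter and inflammation lists, the extremes of the correlations, and neighbours in detection. One gene that the rule picks by presence is not reported here. The gene and the lists were chosen with earlier results of these data known. On simulated data with 20 genes changed by 5 SD, 17 to 20 were called in each contrast they were put in, with at most 2 false calls. Simulated shares were not kept within their possible range, and such changes are far larger than the Gfap differences. The simulation therefore does not show power for small differences. Animal numbers were not used as pairs, since same-numbered animals' deviations correlated from -0.326 to 0.366.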

Additional observations from a re-analysis of the deposited data

Results flagged for a closer look

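The left minus right difference of Gfap level had opposite signs in 2 treatments, with a mean of 0.754 cycles in naive rats (2 of 2 animals above 0) and -0.975 in RIPC rats (3 of 3 below 0). The moderated F test of all 3 treatments gave an adjusted p of 0.933 (limma), and this pair of treatments alone was not tested. These values mix single neurons and pools, and in pools only the mean difference over animals turned to 0.672 cycles.

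The pools minus single neurons difference of Gfap share also had opposite signs, with a mean of 24.6 percentage points in naive rats (2 of 2 above 0) and -19.8 in sham rats (3 of 3 below 0). The F test over the 3 treatments gave an adjusted p of 0.982 (limma). None of 6 groups of 4 to 10 animals held a value far from the rest by Dixon's test.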

How the results depend on the processing

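No Gfap contrast passed the adjusted threshold in any of 211 tested alternatives (smallest adjusted p 0.0579, pools minus single neurons without centring). RIPC minus sham share kept its direction in 11 alternatives that left out no animal, and was -17.1 points weighted by samples. RIPC minus naive share became 10.5 points with single neurons and pools together, 19.6 with single neurons only and 17.5 without pools of 5 cells, a setting chosen after seeing the data. Weighted by samples it was -26.4 points. Sham minus naive share became -9.24 points weighted by samples and by Fisher's exact test over pools, which share animals, and -0.0167 on the arcsine scale. RIPC minus sham level became -0.605 cycles at 50% of the assays, -0.830 with missing values at the highest Ct plus 1, -0.181 with a replicate block and -0.0727 without pools of 5. RIPC minus naive level became 0.160 with both kinds of sample, 0.258 in single neurons, 0.226 centred on all genes, 0.807 without centring, 0.325 centred on Camk2a and 0.0419 without pools of 5. Sham minus naive level became 0.0480 centred on all genes, 0.652 without centring, 0.354 with missing values filled and 0.115 without pools of 5. Left minus right became -5.35 points and 0.672 cycles in pools only, and its level 0.0241 at 50% of the assays, 0.0137 with missing values filled and 0.0151 weighted. Pools minus single neurons became 3.18 points weighted by samples, and its level 0.580 centred on all genes, 1.61 without centring and 0.0173 with first runs only. The causes were not tested.

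Leaving out each animal in turn, RIPC minus sham share ran from -21.6 to 15.9 points, RIPC minus naive from -24.2 to 19.3, sham minus naive from -17.1 to 16.2, left minus right from -0.933 to 6.60 and pools minus single neurons from -13.4 to 1.06. The levels ran from -0.392 to 0.632, -0.554 to 0.470, -0.562 to 0.134, -0.390 to -0.0706 and -0.256 to 0.0308 cycles, where Gfap could not be fitted in the treatment contrasts of level without naive replicate 2 or 3. The correlation of Gfap and Agt level ran from 0.534 to 0.603, and from 0.40 to 0.73 under 9 other settings.

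With the animal number as a replicate block, RIPC minus sham share was -7.52 points and 0 genes were called in each treatment contrast, as without it. The sources used do not say that a number marks a litter or batch, and the 9 same-numbered pairs correlated from -0.326 to 0.366 (median 0.162), beside a median of -0.0724 for the 24 other pairs. At 50% of the assays Gfap was present in 82 of 85 samples, too many for a test of its share, and 0 of 110 genes were called between pools and single neurons, beside 23 at 25% and 48 weighted by samples.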

Other observations

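In the 27 samples with a value in under 25% of the assays, Gfap was present in 3 of 17 single neurons and 0 of 10 pools (0 of 10, interval 0 to 27.8%), while Agt was present in 10 of the 17 single neurons and 0 of the 10 pools.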
